A study of Mus musculus with 18 samples.

Results

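The 8 genes described here act in moving cholesterol out of cells and in sensing it. They are the transporter and receptor genes Abca1, Abcg1 and Scarb1, the lipid carrier gene Apoe, the enzyme genes Cyp27a1 and Ch25h, and the liver X receptor (LXR) genes Nr1h2 and Nr1h3. They were chosen by name, as the rows of both deposited tables whose name is one of these symbols, out of 55333 named genes of one table and 55418 of the other. All 8 were found in both tables, and all 8 passed the filter on low values there. Messenger RNA was measured in bulk in retinal pigment epithelium (RPE), the cell layer behind the photoreceptors, of untreated mice at postnatal day 25, 1 h after light onset. The first table holds 3 libraries labelled Mertk-/-V2Tyro3-/-V2, 3 labelled Tyro3-/-V1 and 6 labelled C57BL/6, whose genotype is given as C57BL/6J. The second, normalized separately, holds 3 libraries labelled Itgb5-/- and 3 labelled WT129. Mertk and Tyro3 encode related receptor tyrosine kinases and Itgb5 an integrin beta chain; Mertk and that integrin act in the uptake of shed photoreceptor tips. The labels call the replicates biological and do not say what V1 and V2 stand for, whether an animal or a pool gave each library, or how the alleles were made, so a p-value here measures the spread between these libraries.

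The RPE takes up the tips of photoreceptor outer segments every day, and with them a load of cholesterol. Surplus sterol is partly oxidized to oxysterols, which bind the LXR proteins; these pair with retinoid X receptors and raise transcription of export genes such as Abca1, Abcg1 and Apoe. When sterol in the endoplasmic reticulum is scarce, the factor SREBP2 instead raises the genes of cholesterol synthesis and uptake.

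The promoters are shown first, for the letters upstream of the only member and the only other pathway gene that passed the test in any comparison, Ch25h and Srebf1. RefSeq promoters on GRCm38.p6 were matched for 6 of the 8 members, the exceptions being Abcg1 and Scarb1. The 250 bases before the start of Abca1 hold the element TGACCGNNAGTAACC, which on the other strand is a direct repeat of the kind LXR and retinoid X receptor bind together. This motif was copied from Abca1 after the Abca1 and Srebf1 sequences had been read, and the bases at which Srebf1 differs were left free as NN. Its hits in Abca1 and Srebf1 were thus fixed in advance, and its share of windows is no support for them. Searched on both strands, it stood in 3 of 32851 promoter windows of that length, 0.00913%, and the 3 belong to Abca1, Srebf1 and Fasn, of which Srebf1 and Fasn were already on the list of other LXR target genes. The windows below give the element in capitals with 20 bases on either side, all on the minus strand, from chr4:53159928-53159982 for Abca1, chr11:60210619-60210673 for Srebf1 and chr11:120824738-120824792 for Fasn. For Srebf1 the element stood before listed start 3 and not before starts 1 and 2, while its counts are summed per gene. A match is a description of letters and not a measured binding site.
Abca1: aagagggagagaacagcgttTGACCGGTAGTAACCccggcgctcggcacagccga
Srebf1: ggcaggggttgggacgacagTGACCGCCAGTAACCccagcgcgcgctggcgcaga
Fasn: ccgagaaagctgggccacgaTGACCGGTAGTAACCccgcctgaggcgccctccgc

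The promoter of Ch25h (chr19:34475149-34475398, minus strand) is shown because Ch25h was the member that passed the test. Its capitals mark TGACGTCA, the palindromic letters of a cyclic AMP response element, which reads the same on both strands and stood in 1.55% of the 32851 windows. The letters TGACCGNNAGTAACC are absent from this window, as from nearly all of the 32851 windows, which says nothing about the factor. TATAAA and CACGTG were also searched on both strands: TATAAA stood in windows of Abca1, Apoe and Ch25h and in 12.4% of all windows, and CACGTG in a window of Abca1 and in 6.02% of all.
Ch25h: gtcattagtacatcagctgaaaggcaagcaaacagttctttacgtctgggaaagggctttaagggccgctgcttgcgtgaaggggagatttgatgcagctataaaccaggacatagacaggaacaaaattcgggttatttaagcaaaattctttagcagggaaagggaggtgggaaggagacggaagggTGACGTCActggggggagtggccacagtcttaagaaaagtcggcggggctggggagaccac

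The libraries held 14135502 to 30401422 reads. As a check of the labels, Tyro3 fell by 1.16 on the log2 scale in libraries labelled Mertk-/-V2Tyro3-/-V2 and by 1.55 in Tyro3-/-V1, each against C57BL/6, and Itgb5 fell by 1.58 in Itgb5-/- against WT129. The Mertk transcript, with 3222, 4113 and 2894 normalized counts under the label Mertk-/-V2Tyro3-/-V2, lay at 2638 to 3924 in C57BL/6, so its transcript level does not distinguish that label, and the double mutant is named by its label throughout. All 12 RPE markers were detected in every group, but so were markers of rods, cones, inner retinal neurons, Muller glia, microglia and macrophages, endothelium, fibroblasts, melanocytes and Schwann cells, lens and ocular surface, so the libraries are not pure RPE. The lens gene Lim2 was at 0 throughout the second table. C57BL/6 replicates 1 to 3 and all mutant libraries of the first table carry the mark 23 in their names and C57BL/6 replicates 4 to 6 do not. The fit has a term for this mark, so the 3 marked C57BL/6 libraries set each fold change against that strain and all libraries set the spread; no member passed the test for the mark itself (limma adjusted p of 0.229 or more), where 0.167% of all genes did.

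Per length, as TPM (recovered reads divided by exon length and scaled to the same total in each library), Apoe was by far the most abundant of the 8 and ranked between place 16 and place 26 of all genes in the 5 groups. Its level was 3322 to 4367 TPM in libraries labelled Mertk-/-V2Tyro3-/-V2 and 3817 to 5511 TPM in C57BL/6. Cyp27a1, Nr1h2, Scarb1 and Abca1 formed a middle tier, with group means between 22.3 TPM for Abca1 in libraries labelled Mertk-/-V2Tyro3-/-V2 and 90.0 TPM for Cyp27a1 in WT129. Abcg1 had group means of 13.3 to 17.3 TPM. Nr1h3 had the lowest mean level of the 8 in the groups of the first table, at 5.16 to 6.17 TPM, and Ch25h had the lowest in the second, at 1.05 TPM in Itgb5-/- and 1.46 TPM in WT129. The receptor mRNAs were very unequal: Nr1h2, which encodes LXR beta, made up 88.1% to 93.8% of the summed TPM of the receptor pair in the 18 libraries, and the group ranges overlapped.

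**Figure D1:**
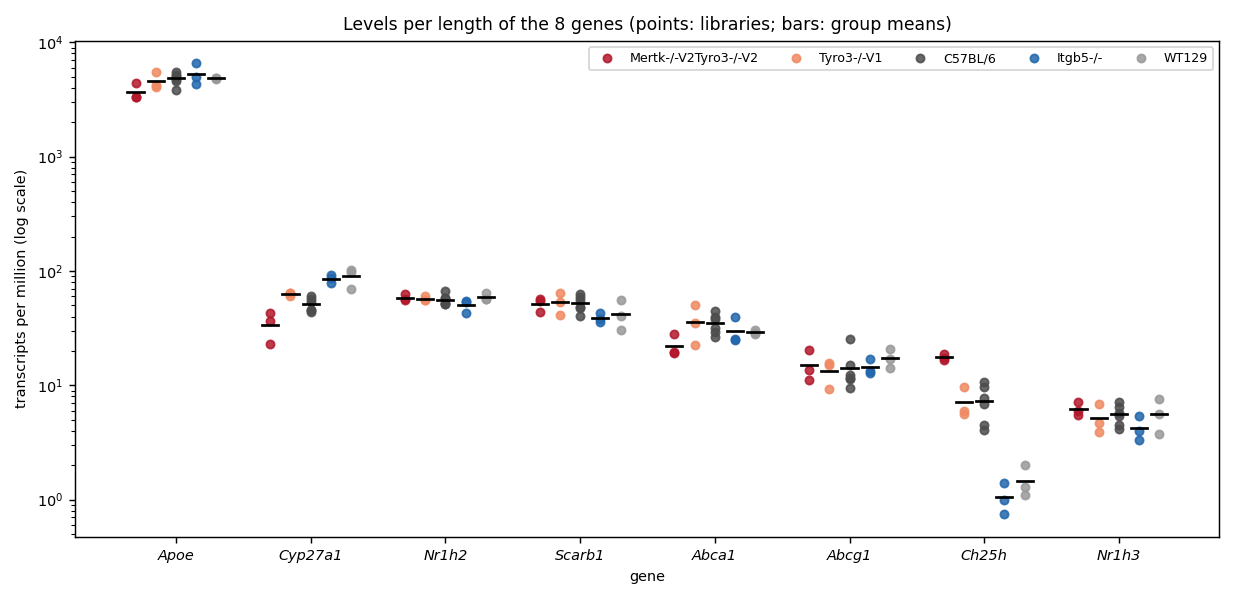
TPM (log axis) of the 8 genes in the 18 libraries, ordered by level; points are libraries, bars are group means, and the groups stand from left to right as in the legend. Apoe lies at 3322 TPM or more in libraries labelled Mertk-/-V2Tyro3-/-V2 and at 3817 TPM or more in C57BL/6, and Ch25h spreads most between groups, between a mean of 17.7 TPM in libraries labelled Mertk-/-V2Tyro3-/-V2 and 1.05 TPM in Itgb5-/-.

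Ordered by mean TPM over the 5 groups, neighbouring groups overlapped at every step for Abca1, Abcg1, Apoe, Nr1h2, Nr1h3 and Scarb1. Ch25h and Cyp27a1 were the exceptions, and the share of all genes with such gaps was not computed. Ch25h averaged 17.7 ± 1.10 TPM in libraries labelled Mertk-/-V2Tyro3-/-V2, 7.13 ± 2.26 TPM in Tyro3-/-V1 and 7.30 ± 2.72 TPM in C57BL/6 (SD, n = 3, 3 and 6), and 1.05 ± 0.329 TPM in Itgb5-/- and 1.46 ± 0.480 TPM in WT129 (SD, n = 3 each). Libraries labelled Mertk-/-V2Tyro3-/-V2 stood clear above the other groups and the second table stood clear below the first, while Tyro3-/-V1 overlapped C57BL/6 and Itgb5-/- overlapped WT129. Cyp27a1 averaged 34.0 ± 10.1 TPM in libraries labelled Mertk-/-V2Tyro3-/-V2, 63.0 ± 2.16 TPM in Tyro3-/-V1 and 51.2 ± 6.87 TPM in C57BL/6, and 85.8 ± 7.01 TPM in Itgb5-/- and 90.0 ± 18.2 TPM in WT129, with the same numbers of libraries. Its neighbours in order of level were apart except for Itgb5-/- and WT129, which overlapped at the top. The gaps next to C57BL/6, which spans 43.9 to 60.5 TPM, were narrow. Libraries labelled Mertk-/-V2Tyro3-/-V2 reached 42.7 TPM and Tyro3-/-V1 began at 60.6 TPM, and in normalized counts both groups overlapped C57BL/6. The steps between the tables set together libraries that were normalized apart and differ in strain, so they are levels and were not tested. The summed markers of melanocytes and Schwann cells also differed, at 4840 to 15668 normalized counts in the first table and 54202 to 184580 in the second.

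**Figure D2:**
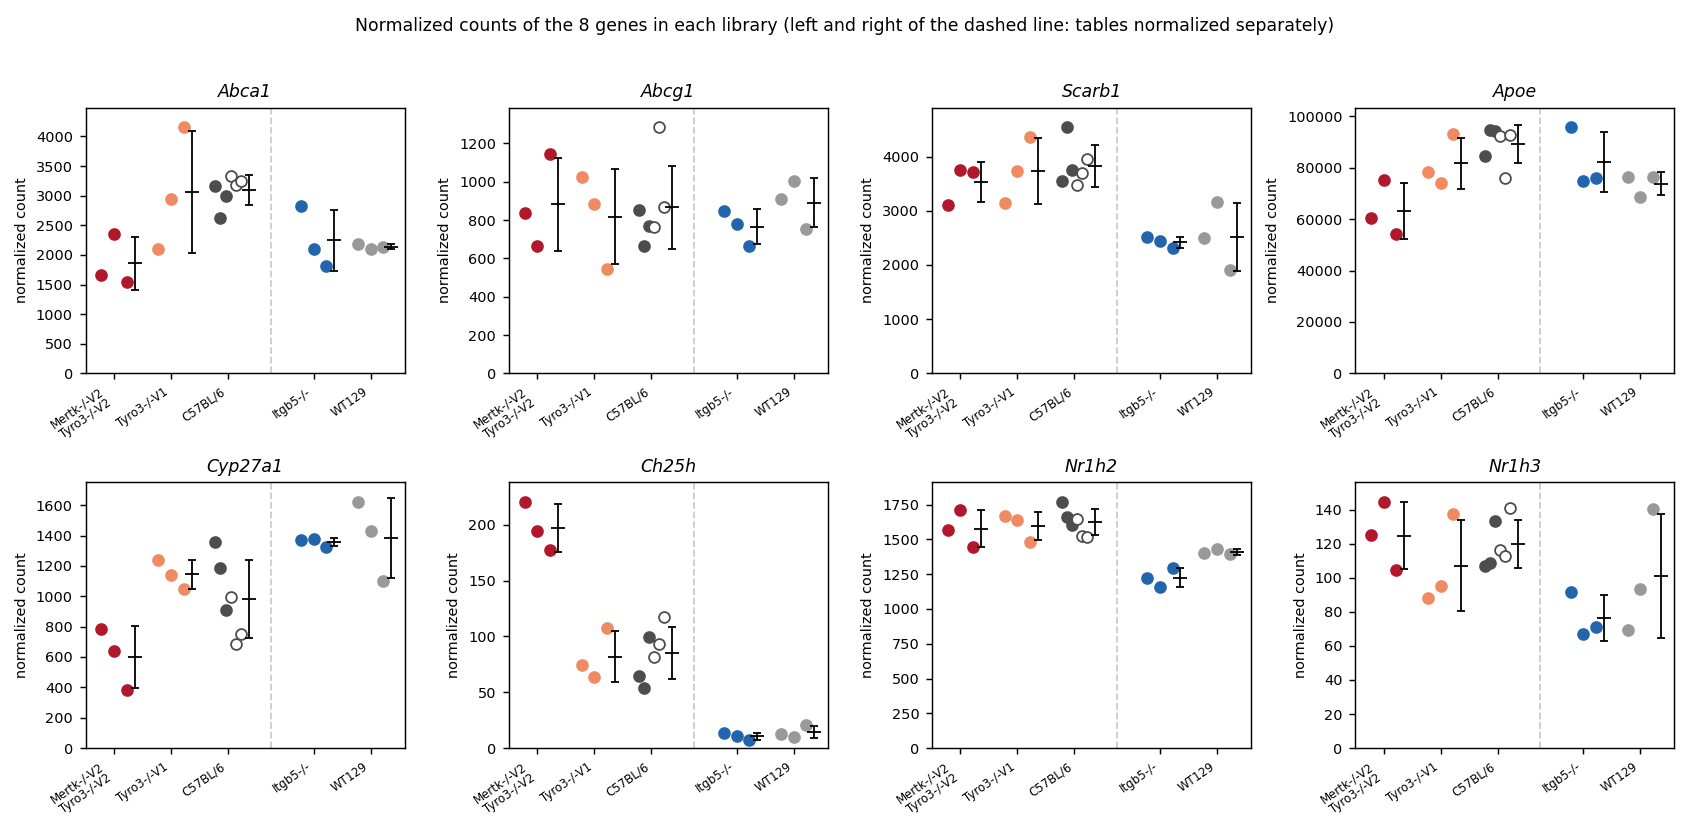
Normalized counts (y axis, from 0) of each of the 8 genes in each library, by group; points are libraries, open points are the C57BL/6 libraries without the mark 23, and black bars are mean and SD. Ch25h is at 177 to 220 in libraries labelled Mertk-/-V2Tyro3-/-V2 and at most 118 in every other library of that table, while the Abca1 and Apoe points of that group lie below all C57BL/6 points.

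Of the 2 oxysterol enzyme genes among the members, Ch25h passed the test between libraries labelled Mertk-/-V2Tyro3-/-V2 and C57BL/6 and Cyp27a1 did not. Ch25h, which makes the LXR ligand 25-hydroxycholesterol from cholesterol and is strongly induced by interferon in macrophages, lies in a single exon on chromosome 19 (GRCm38, 34473778 to 34475164, minus strand). It had 220, 195 and 177 normalized counts in libraries labelled Mertk-/-V2Tyro3-/-V2, against 64.3, 53.9, 99.1, 81.4, 93.0 and 118 in C57BL/6. The 3 libraries labelled Mertk-/-V2Tyro3-/-V2 were the highest of the 12 in this table, and the groups did not overlap. It rose 2.78-fold, or 1.47 ± 0.27 on the log2 scale (SE; 95% interval 0.88 to 2.07; adjusted p = 0.0450 by limma). Ch25h was the only 1 of the 8 members that passed in this comparison, where limma called 0.523% of the 19711 genes tested, 0.274% as higher and 0.249% as lower. With edgeR its adjusted p was 0.0453, in a test that called 0.553% of genes. The call is close to the threshold: the log2 fold change was positive in 26 of 26 alternatives, between 1.25 and 1.72, but passed in 10 of them, and of the 9 fits that leave out 1 library it passed only without C57BL/6 replicate 4, with adjusted p between 0.0463 and 0.205.

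In bulk RNA, a change in the number of cells of a type and a change in RNA per cell cannot be told apart, so markers of other cells are given beside Ch25h. Of 19 microglia and macrophage markers, 17 had a positive log2 fold change in the same comparison, with a median of 0.48 against 0.01 over all genes tested, and 2 passed, Ctss at 0.78 (limma adjusted p = 0.0352) and C1qc at 0.93 (adjusted p = 0.0459). None of the 19 was at 0. Their summed level was 10330 to 13020 normalized counts in libraries labelled Mertk-/-V2Tyro3-/-V2 and 9502 to 14673 in C57BL/6, with full overlap. The means of the sums were 11236 and 11874. The marked C57BL/6 libraries, which set the fold changes, had 11997 to 14673, so the sum did not rise with the median. With the mean score of these markers in the fit, the log2 fold change of Ch25h was 1.58 (limma adjusted p = 0.147). Ch25h shares 159 exonic bases with the gene Gm26902 on the other strand, and the sources used here do not say whether reads were counted by strand, so reads in that stretch cannot be assigned. Gm26902 had 84.2, 112 and 67.3 normalized counts in libraries labelled Mertk-/-V2Tyro3-/-V2 and 34.0 to 91.0 in C57BL/6, with overlap, and its part in the Ch25h values was not tested.

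Cyp27a1 encodes the mitochondrial sterol 27-hydroxylase, which makes 27-hydroxycholesterol and carries it on to acidic products. It lies on chromosome 1 (74713574 to 74737892, plus strand). It had 781, 637 and 382 normalized counts in libraries labelled Mertk-/-V2Tyro3-/-V2, against 1359, 1186, 911, 993, 688 and 750 in C57BL/6. Replicate 1 under the label Mertk-/-V2Tyro3-/-V2 lay above C57BL/6 replicates 5 and 6, which lack the mark, and below all 3 marked libraries. Limma estimated -0.98 ± 0.25 on the log2 scale (SE, 95% interval -1.53 to -0.43), with an unadjusted p of 0.00244 and an adjusted p of 0.0941, so it did not pass. DESeq2 on the recovered reads gave an adjusted p of 0.0110 and called 8.57% of all genes.

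The ratio of the enzymes within a library does not depend on how libraries are scaled. Ch25h made up 30.6%, 32.4% and 42.1% of the summed TPM of Ch25h and Cyp27a1 in libraries labelled Mertk-/-V2Tyro3-/-V2, against 6.65% to 19.7% in C57BL/6. In Tyro3-/-V1 the share was 8.05% to 13.8%, inside the C57BL/6 range. It was 0.863% to 1.49% in Itgb5-/- and 1.09% to 2.82% in WT129. This pair was chosen after the values had been seen, so the shares are given with no test.

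Among the transporters, Abca1 (chromosome 4, 53030787 to 53159895, minus strand) encodes the pump that passes cholesterol and phospholipid to lipid-poor apolipoproteins. It had 1658, 2360 and 1546 normalized counts in libraries labelled Mertk-/-V2Tyro3-/-V2, against 3156, 2629, 2991, 3338, 3181 and 3243 in C57BL/6. All 3 lay below all 6 C57BL/6 libraries. On the log2 scale the difference was -0.68 ± 0.22 (SE, 95% interval -1.17 to -0.19), with an unadjusted p of 0.0115 and an adjusted p of 0.146 by limma, so it did not pass.

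Abcg1 (chromosome 17, 31057675 to 31117988, plus strand), whose protein hands cholesterol on to mature lipoprotein particles, had 838, 662 and 1145 normalized counts in libraries labelled Mertk-/-V2Tyro3-/-V2 and 664 to 1283 in C57BL/6. The ranges crossed, and the fit gave 0.18 on the log2 scale, 95% interval -0.43 to 0.79 (adjusted p = 0.704 by limma). Scarb1 (chromosome 5, 125277087 to 125341094, minus strand), the receptor through which cells exchange cholesterol with high-density lipoprotein, had 3107, 3753 and 3721 normalized counts in libraries labelled Mertk-/-V2Tyro3-/-V2 and 3467 to 4536 in C57BL/6. For Scarb1 the fit gave -0.16, 95% interval -0.46 to 0.14 (adjusted p = 0.483 by limma).

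Apoe (chromosome 7, 19696109 to 19699188, minus strand) encodes the apolipoprotein that carries exported lipid between cells of the eye and brain. It had 60289, 75332 and 54185 normalized counts in libraries labelled Mertk-/-V2Tyro3-/-V2, against 84404, 94702, 94261, 92472, 75888 and 92687 in C57BL/6. All 3 lay below all 6, the closest pair being 75332 and 75888. Limma estimated -0.54 ± 0.15 on the log2 scale (SE, 95% interval -0.87 to -0.20), with an unadjusted p of 0.00473 and an adjusted p of 0.112, so it did not pass, while the DESeq2 adjusted p was 0.0142.

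In all, 3 of the 8 members separated the libraries labelled Mertk-/-V2Tyro3-/-V2 from all C57BL/6 libraries, Ch25h above and Abca1 and Apoe below, where 5.83% of all genes tested separated them, 3.47% above and 2.36% below. The normalized counts carry the scale of the library: as TPM, which divides by each library's own total, Abca1 was 19.0 to 28.2 in libraries labelled Mertk-/-V2Tyro3-/-V2 and 26.5 to 44.6 in C57BL/6, and Apoe likewise overlapped, while Cyp27a1 separated, at no more than 42.7 TPM in libraries labelled Mertk-/-V2Tyro3-/-V2 and at 43.9 to 60.5 TPM in C57BL/6. The share of all genes that separated as TPM was not computed. At an unadjusted p below 0.05 stood 4 members, Ch25h higher and Cyp27a1, Apoe and Abca1 lower, against 21.9% of all genes.

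The markers of the RPE moved with the lower members. Their median log2 fold change was -0.80, 11 of 12 were negative and 1, Rpe65, fell past the threshold by 1.53 (limma adjusted p = 0.0268). Their summed level was 389463, 532363 and 341439 normalized counts in libraries labelled Mertk-/-V2Tyro3-/-V2 and 489590 to 885014 in C57BL/6, and none of the 12 was at 0. With the mean RPE marker score in the fit, Abca1 had a log2 fold change of 0.05, Apoe of 0.01 and Cyp27a1 of -0.47, while Ch25h had 1.57. In the same fit Abcg1, at 0.18 without the score, had -1.06, Nr1h3 had 0.62, Scarb1 0.11 and Nr1h2 0.01. No member passed, and the fit called 0 of all genes. Because the summed markers were apart in the marked libraries, this fit cannot separate the RPE marker level from the label. Markers of Muller glia, rods, cones and inner retinal neurons had medians of 0.95, 0.88, 1.35 and 1.55, with no gene of these lists past the test. Their summed levels overlapped between the groups, as for rods at 91928 to 258401 normalized counts against 35626 to 350611 in C57BL/6. The rod sums were 35626 to 125910 in the marked C57BL/6 libraries, which set the medians, and 136476 to 350611 in the unmarked ones. Over all 6 C57BL/6 libraries their mean was 176005, above 153512 in libraries labelled Mertk-/-V2Tyro3-/-V2. The direction for rods thus depends on the controls used. Medians were 1.55 for lens, 0.72 for endothelium, 0.53 for fibroblasts and mural cells and -0.04 for melanocytes and Schwann cells. Ocular surface epithelium had -1.37, below the median of the RPE markers, and no gene of these further lists passed. With the neural retina score in the fit, Ch25h was at 1.39, Cyp27a1 at -0.55, Abca1 at -0.57 and Apoe at -0.48, again with none past the test.

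**Figure D3:**
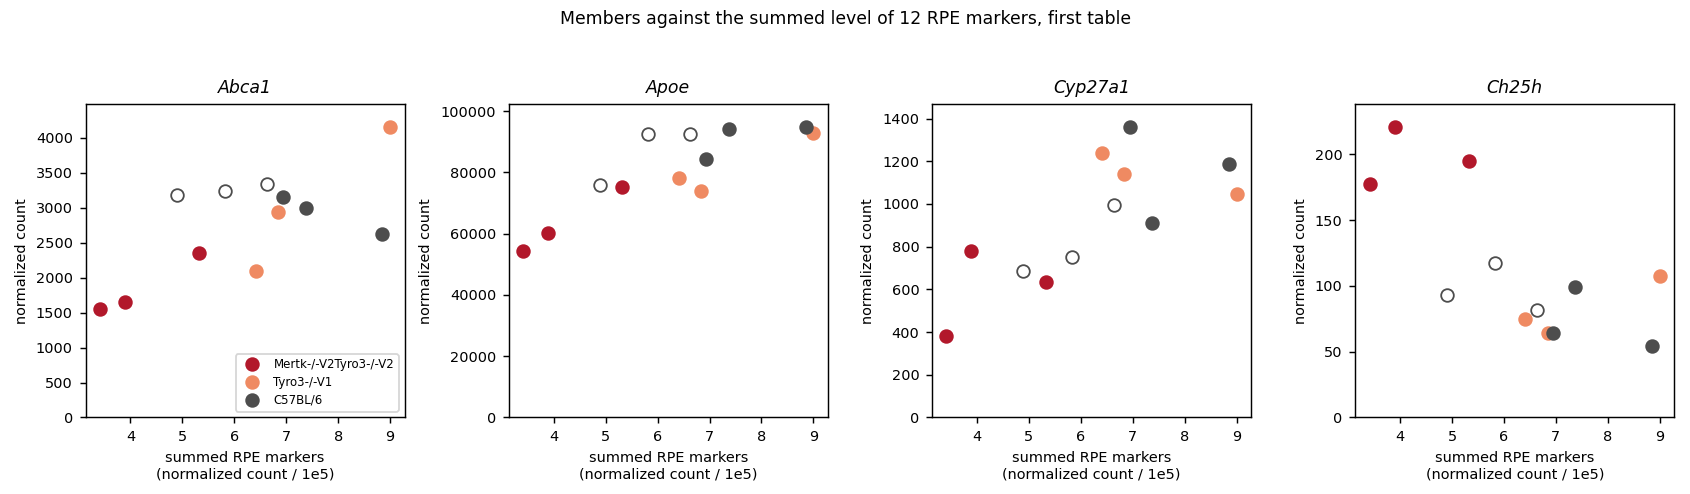
Normalized counts of Abca1, Apoe, Cyp27a1 and Ch25h (y axes, from 0) against the summed normalized counts of 12 RPE markers (x axis) in the 12 libraries of the first table; open points are C57BL/6 libraries without the mark 23. Libraries labelled Mertk-/-V2Tyro3-/-V2 have RPE sums of 341439 to 532363 and sit at the lower left for Abca1, Apoe and Cyp27a1 and at the upper left for Ch25h.

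The receptors were nearly level. Nr1h2 (chromosome 7, 44549616 to 44553951, minus strand), the LXR gene active in most cell types, had 1570, 1715 and 1446 normalized counts in libraries labelled Mertk-/-V2Tyro3-/-V2 and 1520 to 1768 in C57BL/6. The fit gave -0.09 on the log2 scale, and the interval from -0.28 to 0.09 was the narrowest of the 8. Nr1h3 (chromosome 2, 91184061 to 91202834, minus strand), which encodes LXR alpha and is prominent in liver and macrophages, had 125, 145 and 105 normalized counts in libraries labelled Mertk-/-V2Tyro3-/-V2 and 107 to 141 in C57BL/6. For Nr1h3 the fit gave 0.09 on the log2 scale, 95% interval -0.37 to 0.55.

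In Tyro3-/-V1 against C57BL/6, which shares its controls with the comparison above, no member passed by limma, edgeR or DESeq2, and none had an unadjusted p below 0.05. Limma and edgeR each called 0.0457% of all genes tested and DESeq2 0.649%, and 6.71% had an unadjusted p below 0.05. In normalized counts none of the 8 separated the groups either, against 4.05% of all genes. As TPM, Cyp27a1 did, at 60.6 to 64.8 in Tyro3-/-V1 and 43.9 to 60.5 in C57BL/6, with no share of all genes computed on that scale. Ch25h had 74.5, 63.8 and 107 normalized counts in Tyro3-/-V1, inside the C57BL/6 range of 53.9 to 118. The fit gave 0.19 on the log2 scale, 95% interval -0.40 to 0.78. Cyp27a1 had 1241, 1143 and 1048 normalized counts in Tyro3-/-V1, inside the C57BL/6 range of 688 to 1359. Abca1 spread more widely in Tyro3-/-V1 than in any other group, with 2097, 2944 and 4150 normalized counts that reach below and above all C57BL/6 libraries. The 8 log2 fold changes lay between -0.16 for Apoe and 0.19 for Ch25h, and 4 were positive.

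Between the mutant groups, limma and edgeR called 0 of the 8 members and DESeq2 called Ch25h and Cyp27a1, where limma called 0.137% of all genes, edgeR 0.188% and DESeq2 3.28%. At an unadjusted p below 0.05 stood 4 members, against 13.8% of all genes. Ch25h had 220, 195 and 177 normalized counts in libraries labelled Mertk-/-V2Tyro3-/-V2, against 74.5, 63.8 and 107 in Tyro3-/-V1, or 1.29 ± 0.27 on the log2 scale (SE; adjusted p = 0.123 by limma). Cyp27a1 had 781, 637 and 382 normalized counts in libraries labelled Mertk-/-V2Tyro3-/-V2, against 1241, 1143 and 1048 in Tyro3-/-V1, or -0.99 ± 0.25 on the log2 scale (SE; adjusted p = 0.176 by limma). These 2 genes separated the groups, Ch25h above and Cyp27a1 below, where 18.2% of all genes tested did, 10.9% above and 7.22% below. All 12 RPE markers had negative log2 fold changes in the same comparison, with a median of -0.71 and 1 past the test, and their summed level in Tyro3-/-V1 was 641319 to 900043 normalized counts, above every library labelled Mertk-/-V2Tyro3-/-V2. Abca1 and Apoe had log2 fold changes of -0.69 and -0.37 and overlapped, since Abca1 in Tyro3-/-V1 replicate 1, at 2097, was below the highest library labelled Mertk-/-V2Tyro3-/-V2, at 2360.

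**Figure D4:**
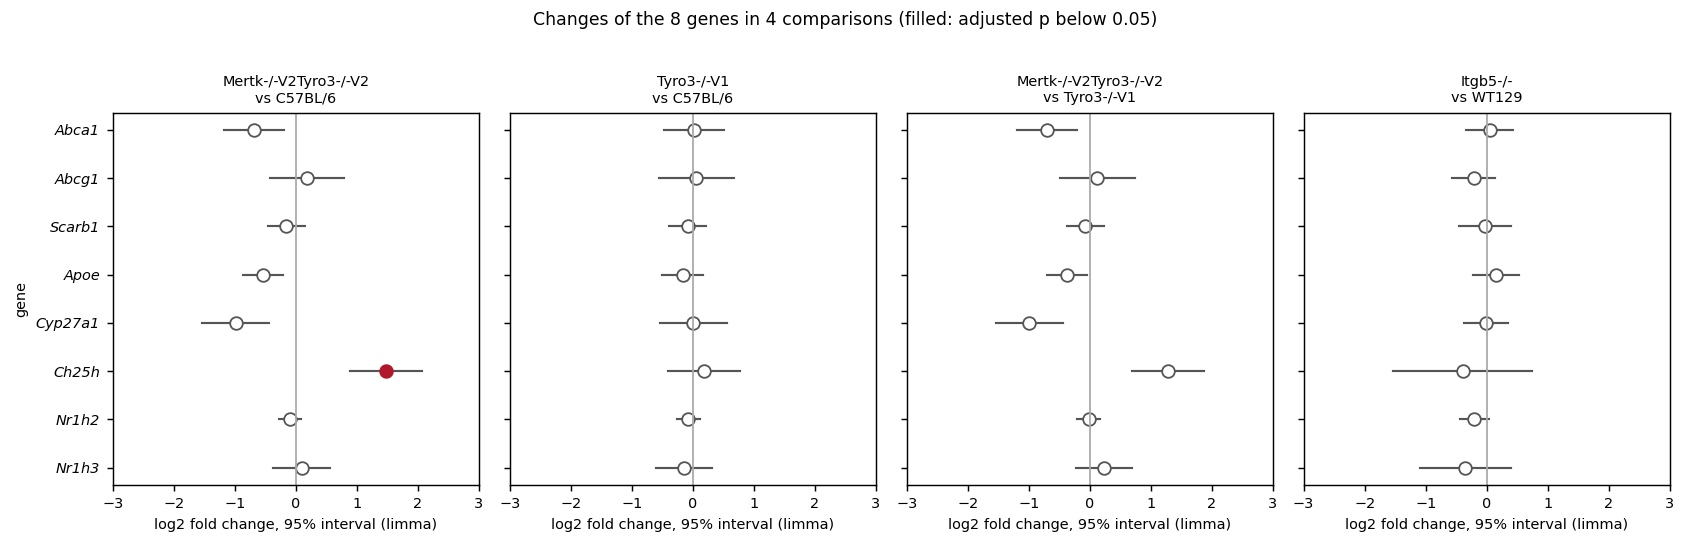
Log2 fold changes (x axis) of the 8 genes with their 95% intervals from limma in the 4 comparisons; filled points passed an adjusted p of 0.05. Ch25h at 1.47 against C57BL/6 is the filled point, and in Tyro3-/-V1 against C57BL/6 every interval includes 0.

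In Itgb5-/- against WT129, tested within the second table, limma, edgeR and DESeq2 called none of the 8 members, and none had an unadjusted p below 0.05; limma called 0.0375% of the 18652 genes tested, edgeR 0.0268% and DESeq2 2.30%, and 8.28% had an unadjusted p below 0.05. Abca1 had 2822, 2107 and 1815 normalized counts in Itgb5-/- and 2188, 2098 and 2133 in WT129, or 0.05 on the log2 scale, 95% interval -0.34 to 0.43. Ch25h was low in this table, at 7.36 to 13.3 normalized counts in Itgb5-/- and 10.1 to 20.4 in WT129, and the 95% interval of the log2 fold change reached from -1.54 to 0.75. Nr1h2 was the 1 member whose groups did not overlap, with 1224, 1158 and 1296 normalized counts in Itgb5-/- and 1401, 1433 and 1393 in WT129. The fit gave -0.20 ± 0.10 on the log2 scale (SE; unadjusted p = 0.0808, adjusted p = 0.649 by limma), in a comparison where 15.4% of all genes did not overlap and 7.68% lay below. Markers of rods moved with the group in this table: all 11 had negative log2 fold changes, with a median log2 fold change of -1.53, 0 of 11 past the limma test (11 at an unadjusted p below 0.05), and a summed level of 62702 to 126350 normalized counts in Itgb5-/- against 188536 to 446764 in WT129. The neural retina score pools markers of rods, cones and inner retinal neurons. With it in the fit, Nr1h2 was at -0.16 (limma adjusted p = 0.994), where 0 of all genes were called. The part of the rods alone in the values of Nr1h2 was not tested.

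The wider pathway was described with 6 lists of 101 other genes. Of these, 93 passed the filter in the first table. In libraries labelled Mertk-/-V2Tyro3-/-V2 against C57BL/6, the 93 had a median log2 fold change of -0.04, against 0.01 over all genes. Limma called 1 of the 93, lower, where it called 0.523% of all genes tested. That gene was Srebf1, the LXR target that encodes the lipogenic factor SREBP1. It had 2505, 2743 and 2691 normalized counts in libraries labelled Mertk-/-V2Tyro3-/-V2, against 3904, 4354, 4049, 3419, 3228 and 3521 in C57BL/6. No libraries overlapped. It fell by 0.63 on the log2 scale, with an SE of 0.10 (limma adjusted p = 0.0352), and it was called in 11 of 26 alternatives. Of the 9 fits without 1 library, it passed without C57BL/6 replicate 4 or without replicate 2 under the label Mertk-/-V2Tyro3-/-V2, and in no other. Scaling by library totals moved the median of all genes to 0.14, against 0.01 with the authors' scaling, and under it Srebf1 was not called and Hmgcs1, a gene of cholesterol synthesis, was called as higher.

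Fasn, the fatty acid synthase gene, was singled out after its sequence and values had been seen. It had 4136, 4353 and 3928 normalized counts in libraries labelled Mertk-/-V2Tyro3-/-V2, against 6115, 5312, 5918, 5582, 4521 and 3965 in C57BL/6, with C57BL/6 replicate 6, which lacks the mark, inside the range of the mutant. The fit gave -0.48 ± 0.12 on the log2 scale (SE; adjusted p = 0.0893 by limma), which did not pass. In Tyro3-/-V1, with the same C57BL/6 controls, Fasn had 3865, 3868 and 4202 normalized counts, and Srebf1 had 3278, 2947 and 3969. Over the 15 tested genes of this list of other LXR targets, which also holds Mertk itself, 5 log2 fold changes were positive and 10 negative in libraries labelled Mertk-/-V2Tyro3-/-V2 against C57BL/6, with a median of -0.17.

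The genes of cholesterol synthesis, targets of SREBP2, had their largest median difference between the mutant groups. Of 16 genes, 13 had a positive log2 fold change in libraries labelled Mertk-/-V2Tyro3-/-V2 against Tyro3-/-V1, with a median log2 fold change of 0.58 against -0.01 over all genes; 11 lay entirely above, where 10.9% of all genes did, 1 lay entirely below, and 12 had an unadjusted p below 0.05, 11 of them higher, against 13.8% of all genes. None passed the limma test. The RPE markers, with a median of -0.71 in this comparison, ran in the opposite direction to the list. Limma again called 0 of the 93 pathway genes with the RPE score in the fit, which called 4 of all genes. The part of these markers in the values of the list was not tested further. Hmgcs1, which encodes an early enzyme of the pathway, had 7296, 8954 and 8024 normalized counts in libraries labelled Mertk-/-V2Tyro3-/-V2, against 5268, 4922 and 4682 in Tyro3-/-V1. The fit gave 0.70 ± 0.12 on the log2 scale (SE; adjusted p = 0.0587 by limma), with an edgeR adjusted p of 0.0487. Lss, which encodes lanosterol synthase, had 2208, 2449 and 2401 normalized counts in libraries labelled Mertk-/-V2Tyro3-/-V2, against 1658, 1621 and 1359 in Tyro3-/-V1 (log2 fold change 0.61, limma adjusted p = 0.0758). Over all 93 pathway genes in this comparison limma called 0, edgeR 1 and DESeq2 13, of which 11 were higher and 2 lower. Of all genes, limma called 0.137%, edgeR 0.188% and DESeq2 3.28%. An unadjusted p below 0.05 was met by 25 of the 93, and by 13.8% of all genes.

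Against C57BL/6 the same list was split between the groups. In Tyro3-/-V1 its median log2 fold change was -0.44, and 10 of 16 had an unadjusted p below 0.05, all lower, against 6.71% of all genes, with 0 past the limma test. In libraries labelled Mertk-/-V2Tyro3-/-V2 its median was 0.06, with 0 past the limma test. At an unadjusted p below 0.05 stood 4 of 16, of which 2 were higher and 2 lower, against 21.9% of all genes. The 3 marked C57BL/6 libraries set these fold changes. Against all 6, 0 of the 16 genes separated Tyro3-/-V1, where 4.05% of all genes did. Lss had 2032 to 2406 normalized counts in marked C57BL/6 libraries, 1418 to 1767 in unmarked ones and 1359 to 1658 in Tyro3-/-V1. For Hmgcs1 these ranges were 5722 to 6511, 4191 to 5543 and 4682 to 5268. Hmgcs1 had 4191 to 6511 normalized counts in C57BL/6, below every library labelled Mertk-/-V2Tyro3-/-V2 and across the range of Tyro3-/-V1. Over all 93 pathway genes in Tyro3-/-V1 against C57BL/6, limma and edgeR called 0 and DESeq2 called 6, where DESeq2 called 0.649% of all genes. At an unadjusted p below 0.05 stood 20 of the 93, where 6.71% of all genes were. In Itgb5-/- against WT129, limma and edgeR called 0 of 88 and DESeq2 called 2, where DESeq2 called 2.30% of all genes. An unadjusted p below 0.05 was met by 6 of the 88, and by 8.28% of all genes. The first 3 comparisons share libraries and are not independent.

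**Figure D5:**
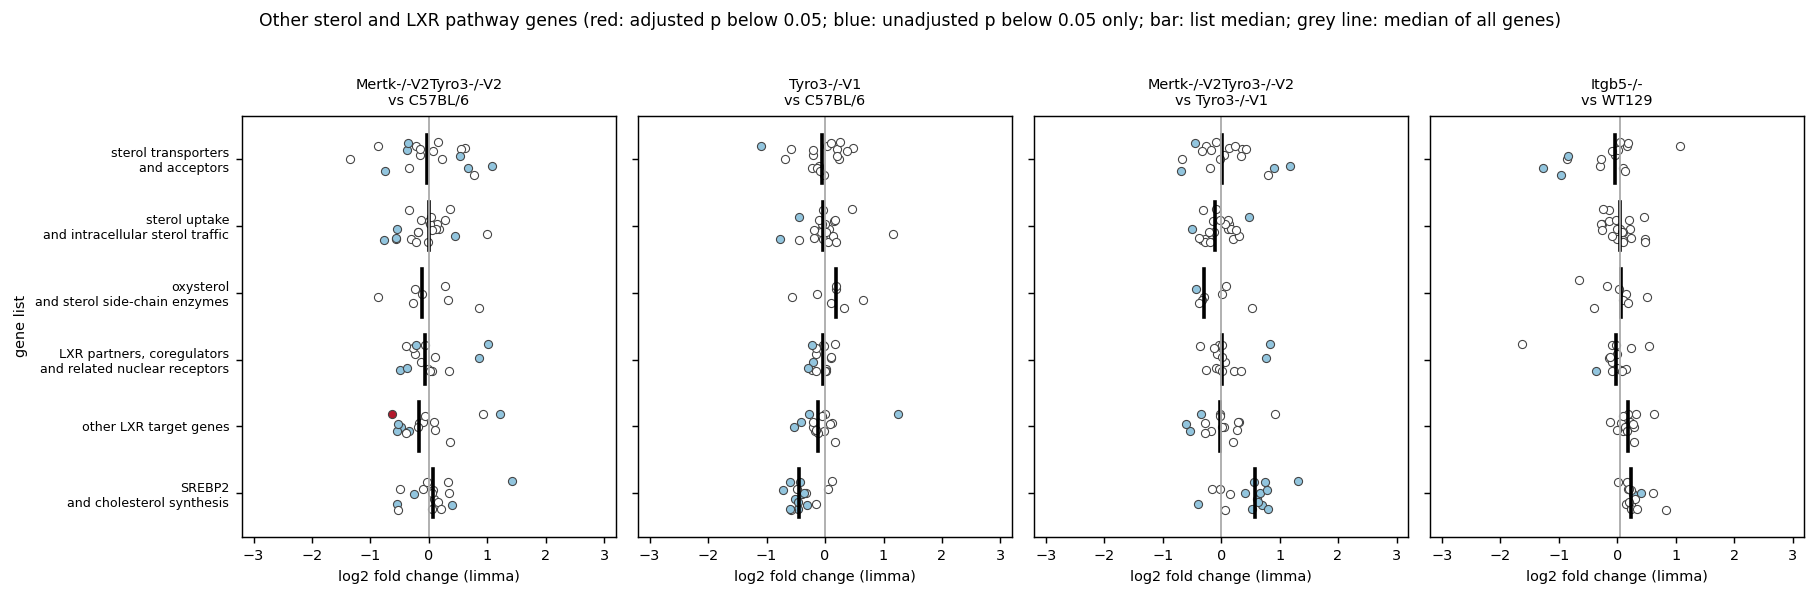
Log2 fold changes (x axis) of the tested genes of 6 pathway lists in the 4 comparisons; each point is a gene, the black bar is the list's median, and the grey line is the median of all genes. Srebf1, in red at -0.63, is the gene that passed, and the cholesterol synthesis list has its medians at 0.58 between the mutant groups and at -0.44 in Tyro3-/-V1 against C57BL/6.

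The remaining lists held no gene past the limma test in any comparison, and genes of smallest p in each are given as values. For transporters and acceptors these were Pltp, the phospholipid transfer protein gene and an LXR target, and Lpl, the lipoprotein lipase gene. Pltp averaged 9813 ± 2446 normalized counts in libraries labelled Mertk-/-V2Tyro3-/-V2 and 14478 ± 2700 in C57BL/6 (SD, n = 3 and 6; log2 fold change -0.76, limma adjusted p = 0.0882). Lpl averaged 1058 ± 114 in Itgb5-/- and 1940 ± 461 in WT129 (SD, n = 3 each; -0.85, limma adjusted p = 0.353). For sterol uptake and traffic they were Stard4 between the mutant groups, at 0.48 (limma adjusted p = 0.273), and Lrp8, the apolipoprotein E receptor 2 gene, at -0.55 in libraries labelled Mertk-/-V2Tyro3-/-V2 against C57BL/6 (adjusted p = 0.154).

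For oxysterol and side-chain enzymes the genes of smallest p were Cyp39a1, which encodes an oxysterol 7-alpha-hydroxylase, at -0.43 between the mutant groups (limma adjusted p = 0.347), and Fdxr, which encodes the reductase that feeds electrons to mitochondrial P450 enzymes such as the product of Cyp27a1, at 0.28 in libraries labelled Mertk-/-V2Tyro3-/-V2 against C57BL/6 (adjusted p = 0.237). For LXR partners and related nuclear receptors, Nr1h4, the bile acid receptor gene, had a log2 fold change of 1.02 in libraries labelled Mertk-/-V2Tyro3-/-V2 against C57BL/6 (limma adjusted p = 0.161), with overlapping groups.

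Within groups, the member profiles were compared with those of 12345 genes of mean at least 100 over the 12 libraries of the first table, after subtracting the mean of each group and mark, and the 2 nearest genes were checked in the 6 libraries of the second. Scarb1 was the member whose nearest genes were also near in the second table. They were Slc24a1, the exchanger gene of rods, with r = 0.98 (Spearman rho = 0.98, r = 0.97 without the 2 libraries farthest out) over 12 libraries and r = 0.997 over 6, and Fbxo10, with r = 0.97 (rho = 0.97, r = 0.95 without those 2) over 12 and r = 0.985 over 6. The points of 1 table share their scaling and the mixed cell content given above. For the other members the nearest genes in the first table were at r = 0.90 to 0.99 and ranged between -0.71 and 0.64 in the second: Clcn5 and Tmem245 for Abca1, Rps6ka5 and Ipmk for Abcg1, Adipor2 and Calml4 for Apoe, Slc1a5 and Arhgef6 for Nr1h2, Gldc and Ube4a for Nr1h3, Mapkap1 and Pik3cb for Cyp27a1, and Zxdb and Id3 for Ch25h. These are correlations picked as the highest of many and are given as a description with no p.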

How the data were processed

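RNA of 18 RPE libraries in 5 groups was analysed. Per the labels, the authors deposited 2 tables, scaled separately, whose values are normalized counts, treated here as a signal per gene. Per the submitters' processing notes, the tools were STAR and DESeq2 and the builds GRCm38 and mm10; versions, counting and strand settings are not given in the sources used here. Dividing each library by its smallest step gave whole reads for 100% of values (tolerance 0.001), with size factors of 0.541 to 1.20. Lines without a gene name were left out of the first table (at most 0.0203% of a library), and those of the second were named by Ensembl identifier where they had one. TPM used these reads and exon lengths of GENCODE M21.

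A gene entered the tests when 3 or more libraries had a value of 10 or higher. Limma 3.58.1 (R 4.3.3) was run on log2(value + 1), with trend and robust shrinkage, two-sided. Benjamini-Hochberg adjustment covered all genes kept, with a threshold of 0.05. This scale understates the fold change of low genes. All 12 libraries of the first table entered 1 fit with a term for the mark 23. The steps were tested on simulated data. Alternatives were other pseudocounts, filters and scalings, edgeR 4.0.16 and DESeq2 1.42.0 on recovered reads, marker scores as covariates, other sample sets and each library left out. The RPE score and library totals were added after seeing the data.

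The members and all lists were chosen with earlier results of these data known. Other genes named are the targeted genes, up to 3 past the threshold per pathway list or the 2 of smallest p where none passed, and the 2 nearest to each member in profile. One gene that this rule names is not reported here. Same-numbered libraries of different groups had correlations of their deviations between -0.21 and 0.56 in the first table and between -0.12 and 0.03 in the second, so the numbers were not treated as pairs.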

Additional observations from a re-analysis of the deposited data

Results flagged for a closer look

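Of 34 sets of 6 C57BL/6 values, for the members, the named pathway genes, the ratios and the summed markers, 3 had a library far from the other 5; by chance about 1 in 20 would. Abcg1 had 1283 normalized counts in C57BL/6 replicate 5, against 664 to 870 in the other 5. The log2 ratio of Abca1 to Abcg1 was lowest in the same library, at 1.31, and was 1.89 to 2.13 in the others. The summed markers of melanocytes and Schwann cells were highest in C57BL/6 replicate 4, at 15668 normalized counts. Replicate 5 carries no mark 23.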

How the results depend on the processing

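Of the 8 members, limma called 1 as higher in libraries labelled Mertk-/-V2Tyro3-/-V2 than in C57BL/6. It called 0 after quantile normalization, with a microglia, neural retina or RPE score in the fit, without the mark term, in the marked libraries only, with the 2 libraries farthest out on the first principal component removed, and with only the compared groups. DESeq2 called 3 (Apoe, Ch25h, Cyp27a1), an unadjusted p below 0.05 was met by 4, and leaving out 1 library gave 0 to 1. Between the mutant groups, where limma called 0, DESeq2 called 2 and the unadjusted p 4. The cause of these differences was not tested. No called direction turned; Abca1 and Apoe, never called by limma, were at 0.05 and 0.01 with the RPE score, where every other alternative gave a negative value.

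Of the pathway genes, 1 was called in libraries labelled Mertk-/-V2Tyro3-/-V2 against C57BL/6. This was 0 after quantile normalization, with each of the 3 scores, without the mark term, in the marked libraries only and without those 2 libraries, 10 by DESeq2, 25 by unadjusted p, and 0 to 4 with 1 library left out. Between the mutant groups 0 were called, against 1 without the filter, with TMM or by edgeR, 2 after quantile normalization or with the neural retina score, 3 with library totals, 13 by DESeq2 and 25 by unadjusted p. DESeq2 and the unadjusted p gave 6 and 20 in Tyro3-/-V1 against C57BL/6 and 2 and 6 in Itgb5-/- against WT129, where limma called 0.

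The labels do not say that a replicate number marks a shared animal, batch or day, and not every same-numbered pair correlated, with a lowest value of -0.21 among libraries of the first table and of -0.12 among those of the second, so the numbers were not used as pairs. As a hint from the data and not the design, 6 of 9 libraries of the first table and 2 of 6 of the second correlated best with their own number. With a replicate block, 2 members (Ch25h and Cyp27a1) and 6 pathway genes were called in libraries labelled Mertk-/-V2Tyro3-/-V2 against C57BL/6.

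Over all genes, the 103 calls in that comparison became 27 after quantile normalization, 716 with the replicate block, 0 with the microglia or RPE score, 34 with the neural retina score, 192 with library totals, 1689 by DESeq2, 53 without the mark term, 11 in marked libraries, 13 without those 2 libraries, 29 with only the compared groups and 0 to 142 with 1 library left out. The 27 between the mutant groups became 41 without the filter, 13, 42 and 4 with the microglia, neural retina and RPE scores, 646 by DESeq2, 5 in marked libraries, 11 without those 2 libraries, 2 with only those groups and 2 to 35 with 1 library left out. The 9 in Tyro3-/-V1 against C57BL/6 became 128 by DESeq2, 5 without those 2 libraries and 3 to 9 with 1 left out, and the 7 in Itgb5-/- against WT129 became 19 without the filter, 0 with the block, the neural retina or the RPE score, 429 by DESeq2 and 0 to 10 with 1 left out.

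With 3 libraries in each mutant group, wide intervals limit what the members with few reads can show, Ch25h in the second table most.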
